A study of Mus musculus with 24 samples.

Results

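The genes described here are 10 modulators of Wnt and BMP signalling: the secreted inhibitor gene Sostdc1, the R-spondin receptor genes Lgr4, Lgr5 and Lgr6, the pathway genes Axin2 and Lef1, the Wnt ligand genes Wnt4, Wnt5a and Wnt10a, and the BMP ligand gene Bmp2. They were taken by gene symbol from the 19937 genes with a single-symbol probe set on the array, and all 10 were measured. Wnt4 had 2 probe sets, and the one with the higher mean over the 24 arrays (log2 10.07 against 9.78) was used. The probe set was chosen by that mean, the only array value in the rule, but the genes themselves were proposed with earlier results in view, in which Sostdc1 and Lgr6 had been singled out for their lower levels with ligand in wild-type Hras cells. Both are therefore given as values without a test, and left out of the counts, in that comparison and in each other one that contains wild-type Hras arrays.

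RNA came from cultured primary keratinocytes of C57/BL6 mice, either wild-type or null for PPAR-beta (the nuclear receptor encoded by Ppard). The cells were grown for 2 days and then mock transduced or transduced for 48 hours with a retrovirus carrying an activated Hras oncogene. Each of these was given the vehicle DMSO, or 1 uM of the PPAR-beta agonist GW0742 for 24 hours. The 8 groups are therefore wild-type mock DMSO, wild-type mock GW0742, wild-type Hras DMSO, wild-type Hras GW0742 and the same 4 in null cells, with 3 arrays each. The sources used here do not give what the mock cells received in place of the virus, the deleted part of Ppard, the ages of the mice or whether animals were pooled. Nothing says that the 3 arrays of a group are separate cultures or mice, so a p-value here reflects array-to-array spread that may be technical.

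Wnt proteins bind Frizzled and LRP receptors and stabilise beta-catenin, which works with TCF and LEF factors, Lef1 among them, to switch on target genes. Axin2 is both a target and a brake of this pathway. Lgr4, Lgr5 and Lgr6 bind R-spondins and so keep Frizzled receptors at the cell surface by restraining the ubiquitin ligases Rnf43 and Znrf3. In skin, Lgr5 and Lgr6 mark stem cells of the hair follicle, Wnt10a and Wnt4 are made by epidermal keratinocytes, and Sostdc1 (also called ectodin or Wise) limits BMP and Wnt signals during hair follicle and tooth development. Wnt5a acts mostly without beta-catenin, and Bmp2 signals through SMAD proteins.

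RefSeq promoter windows of 300 bases (250 before to 50 after the start, GRCm38.p6) were at hand for 5 of the 10 genes, Lgr4, Lgr6, Axin2, Lef1 and Wnt4. The windows of Lgr4 and Lgr6 are shown because these sister receptors moved in opposite directions with Hras. The 4th window of Lef1 and the window of Wnt4 are shown because they held the matches described next. Capitals mark the letters TCAAAG (the core bound by TCF and LEF factors) or GGCGCC (a GC-rich SMAD element), on either strand.
Lgr4, chr2:109917397-109917696, plus strand: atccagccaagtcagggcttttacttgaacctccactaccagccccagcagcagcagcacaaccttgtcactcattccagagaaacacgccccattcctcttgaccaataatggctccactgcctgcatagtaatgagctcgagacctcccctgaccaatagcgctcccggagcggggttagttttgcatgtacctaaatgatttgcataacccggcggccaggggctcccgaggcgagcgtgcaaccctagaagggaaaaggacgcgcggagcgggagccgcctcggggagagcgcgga
Lgr6, chr1:135105227-135105526, minus strand: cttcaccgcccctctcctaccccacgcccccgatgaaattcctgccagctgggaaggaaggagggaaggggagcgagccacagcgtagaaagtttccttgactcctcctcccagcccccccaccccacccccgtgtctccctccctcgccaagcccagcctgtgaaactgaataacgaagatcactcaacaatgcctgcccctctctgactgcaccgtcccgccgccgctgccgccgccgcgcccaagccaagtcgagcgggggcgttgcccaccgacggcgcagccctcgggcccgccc
Lef1, chr3:131156044-131156343, plus strand: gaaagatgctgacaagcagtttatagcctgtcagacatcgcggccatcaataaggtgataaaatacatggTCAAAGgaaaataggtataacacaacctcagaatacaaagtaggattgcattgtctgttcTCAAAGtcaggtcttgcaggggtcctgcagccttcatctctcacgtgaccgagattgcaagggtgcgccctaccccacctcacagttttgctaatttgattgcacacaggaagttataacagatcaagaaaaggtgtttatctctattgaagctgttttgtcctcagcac
Wnt4, chr4:137277385-137277684, plus strand: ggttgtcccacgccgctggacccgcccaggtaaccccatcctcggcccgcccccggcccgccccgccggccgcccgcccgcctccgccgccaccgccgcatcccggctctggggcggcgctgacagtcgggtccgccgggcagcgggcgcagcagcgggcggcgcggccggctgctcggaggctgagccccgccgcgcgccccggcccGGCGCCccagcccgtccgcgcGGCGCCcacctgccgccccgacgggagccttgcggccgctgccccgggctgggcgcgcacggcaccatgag
The Lef1 window held TCAAAG 2 times, at positions -180 and -120 from the start, and 16% of all 32851 windows held it at least once. The Wnt4 window held GGCGCC 2 times, at positions -42 and -21, against 11.9% of windows with a match. G and C make up 84.3% of the Wnt4 window and all of GGCGCC, and the share is not matched for this. GGCGCC also occurred 1 time in each of the first and second Lef1 windows, which overlap and share this site. The windows of Lgr4, Lgr6 and Axin2 held neither of these runs. The PPAR response element, a direct repeat of AGGTCA spaced by 1 base, was in 0.0396% of windows and AGGTCA, which it contains, in 16.3%. Neither run was in a window of these 5 genes, which says only that the letters are not in these 300 bases.

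The log2 change of Ppard, the targeted gene, between null and wild-type cells given DMSO was -0.57 ± 0.06 without and -0.28 ± 0.06 with Hras. Its probes may lie outside the deletion, in which case they do not test the genotype. All 12 keratinocyte markers listed, Krt5, Krt14 and Trp63 among them, had means over the 24 arrays above log2 7.26. The dimmest 40% of genes lie under this level. Single arrays ran from 7.14 to 13.9 for Krt1 and from 7.78 to 13.1 for Krt10, so the lowest Krt1 value was under the level. The 10 genes described here also had means above it. However, all 12 Hras arrays for Lgr5 (log2 6.07 to 6.54) and for Lef1 (log2 7.06 to 7.26) lay under it, the highest Lef1 array only just. No detection calls came with the values, so how far these levels lie above background is not known. The median SD over genes was 0.122 in null Hras cells given GW0742 and 0.0647 to 0.0798 in the other 7 groups. Each change below is a log2 difference ± its standard error from one limma model of the 24 arrays (n = 3 arrays per group). A gene passed the test at an adjusted p under 0.05 over all genes.

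**Figure D1:**
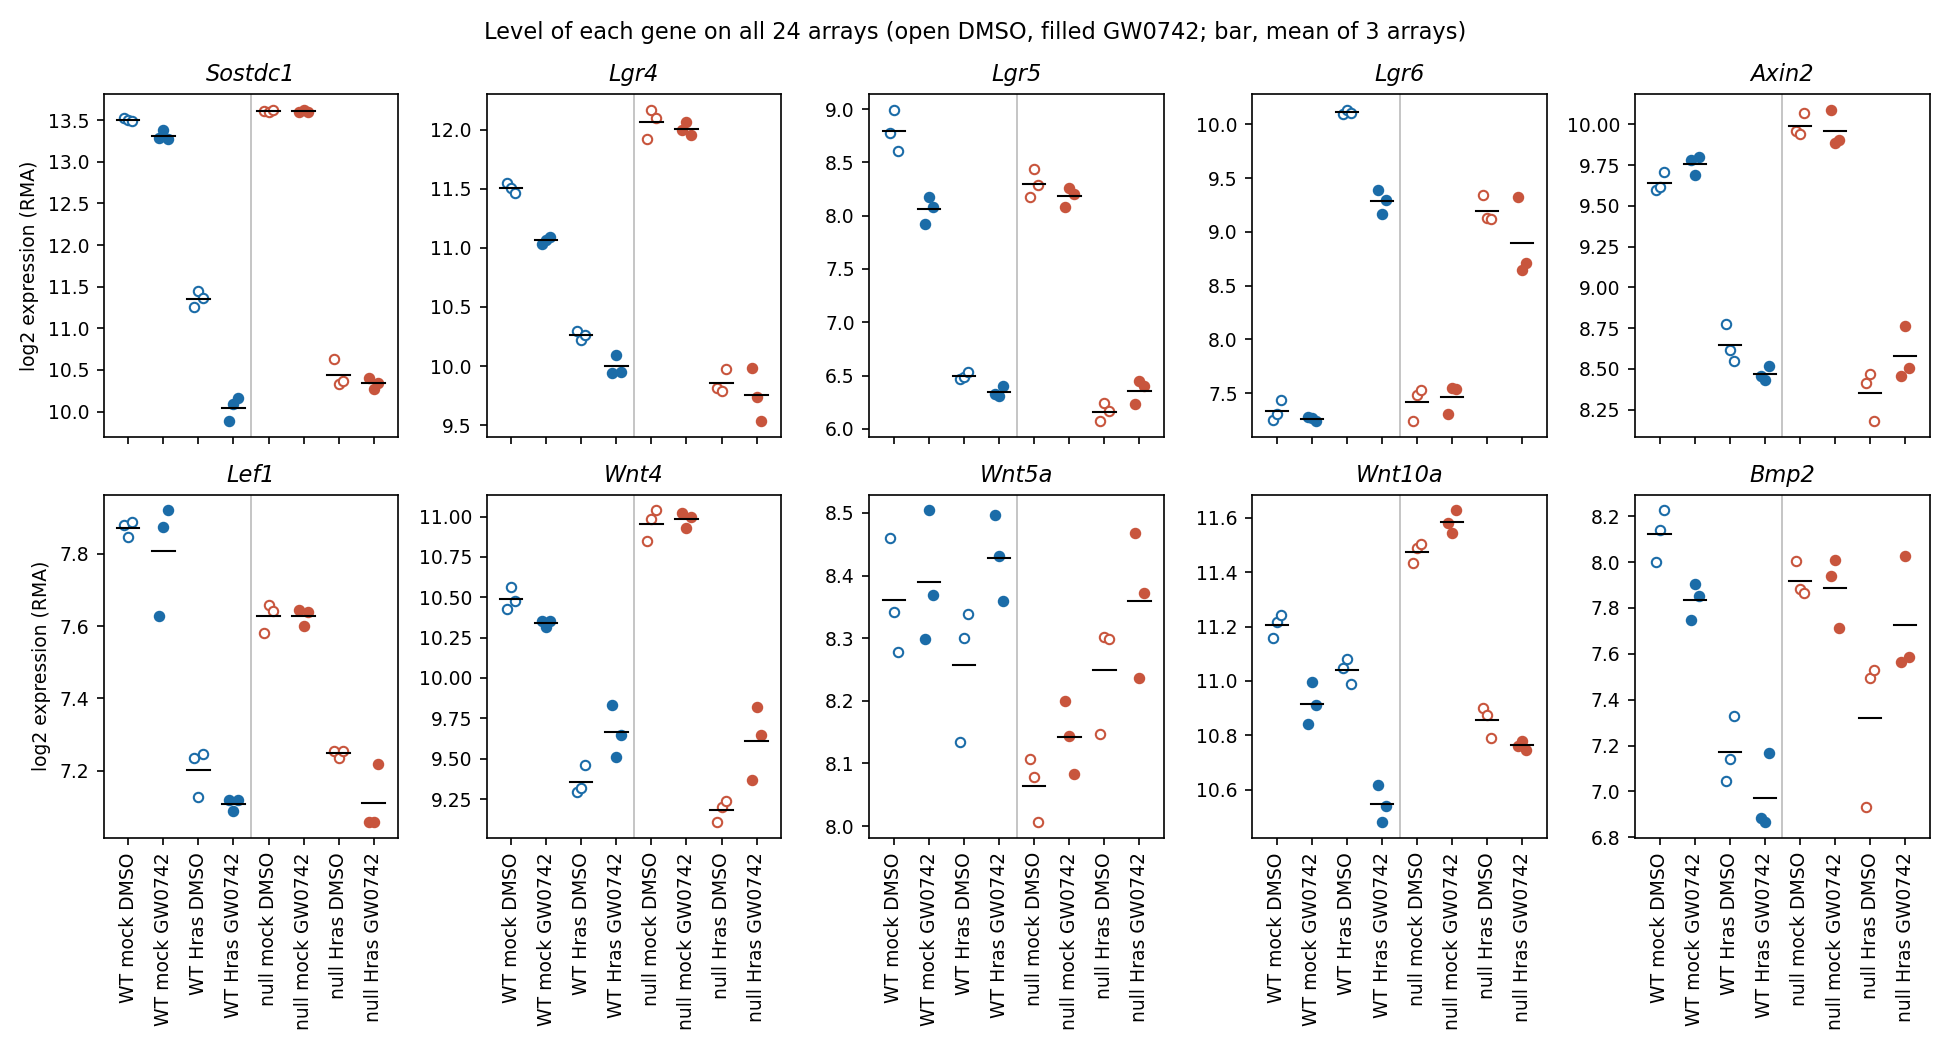
Log2 expression (vertical axis, a separate scale per gene) of the 10 genes on every array, by group (horizontal axis); blue is wild-type, red is null, open circles are DMSO, filled circles are GW0742 and bars are means of 3 arrays. Sostdc1, Lgr4, Lgr5, Axin2, Lef1 and Wnt4 were lower on every Hras array than on any mock array, and Lgr6 was higher on every Hras array. The share of all genes separated in this way is not given, so this is a description only. Sostdc1 and Lgr6 were singled out on wild-type Hras arrays, which are among these.

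Hras changed the most of these genes. In wild-type DMSO cells 7 of the 8 genes other than Sostdc1 and Lgr6 fell and Wnt5a did not pass. The median change over all 10 was -0.97, against 0.02 over all genes. It is a description that includes Sostdc1 and Lgr6, which were singled out on wild-type Hras arrays. Sostdc1 lay below this median and Lgr6 above it, so leaving out both does not move it. Of all genes tested, 37.4% passed in that comparison, 19.0% as lower and 18.4% as higher. In null DMSO cells 8 of the 10 fell and 2 rose (Lgr6 and Wnt5a), with a median of -1.13 against 0.00 over all genes, where 40.7% of all genes passed, 20.5% as lower and 20.2% as higher.

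The 3 R-spondin receptor genes did not move together. Lgr5 measured 8.77, 9.0 and 8.61 on the wild-type mock DMSO arrays and 6.47, 6.49 and 6.54 after Hras, a 4.91-fold fall (-2.29 ± 0.09, adjusted p = 9.46e-15). In null cells it went from 8.17, 8.44 and 8.29 to 6.07, 6.24 and 6.17 (-2.14 ± 0.09, adjusted p = 2.42e-14). Neither pair of groups overlapped, and the falls in the 2 genotypes differed by 0.15 ± 0.13 (adjusted p = 0.502). Because the Hras values of Lgr5 lie in the dim range, the falls may be understated.

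Lgr4 fell less in wild-type than in null cells. Its wild-type DMSO values were 11.55, 11.51 and 11.47 in mock and 10.30, 10.22 and 10.26 in Hras cells, a 2.38-fold fall (-1.25 ± 0.08, adjusted p = 7.37e-11). The null values were 11.93, 12.17 and 12.10 in mock and 9.81, 9.79 and 9.98 in Hras cells, a 4.62-fold fall (-2.21 ± 0.08, adjusted p = 6.22e-15). The null fall was larger by 0.96 (difference -0.96 ± 0.12, adjusted p = 9.16e-06).

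Lgr6 was the receptor that was higher with Hras. It measured 7.25, 7.31 and 7.43 in wild-type mock DMSO cells and 10.10, 10.14 and 10.11 after Hras, a 6.88-fold difference (2.78 ± 0.13, no test). In null cells the values were 7.24, 7.49 and 7.53 in mock and 9.34, 9.13 and 9.12 in Hras cells, a 3.43-fold rise (1.78 ± 0.13, adjusted p = 1.32e-10). The null minus wild-type difference of these changes was -1.01 ± 0.18, given without a test. In mock cells the arrays of the genotypes overlapped, while in Hras DMSO cells every null array was below every wild-type array.

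Sostdc1 had the largest fall of the 10 in null cells. It was high in mock DMSO cells of either genotype, at 13.53, 13.50 and 13.49 in wild-type and 13.61, 13.60 and 13.63 in null cells. After Hras it measured 11.25, 11.44 and 11.37 in wild-type cells, a 4.45-fold difference (-2.15 ± 0.07, no test). In null Hras cells it measured 10.63, 10.33 and 10.36, a 9.01-fold fall (-3.17 ± 0.07, adjusted p = 3.04e-18). The null minus wild-type difference of these changes was -1.02 ± 0.10, given without a test.

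The pathway genes Axin2 and Lef1 also fell. Axin2 measured 9.60, 9.62 and 9.71 in wild-type mock DMSO and 8.77, 8.61 and 8.55 in wild-type Hras DMSO cells (-0.99 ± 0.08, adjusted p = 2.44e-09). In null cells it went from 9.96, 9.94 and 10.07 to 8.41, 8.47 and 8.18 (-1.64 ± 0.08, adjusted p = 6.77e-13). The null fall of Axin2 was the larger one (difference -0.65 ± 0.12, adjusted p = 0.000534). For Lef1 the order of the genotypes was turned: it fell from 7.88, 7.85 and 7.89 to 7.24, 7.13 and 7.25 in wild-type cells (-0.67 ± 0.06, adjusted p = 1.01e-08). In null cells Lef1 fell from 7.58, 7.66 and 7.64 to 7.26, 7.23 and 7.25 (-0.38 ± 0.06, adjusted p = 2.78e-05). This difference (0.29 ± 0.09, adjusted p = 0.0250) did not pass without wild-type mock DMSO replicate 1 (adjusted p = 0.0520) or 3 (0.0519), null mock DMSO replicate 1 (0.0597) or wild-type Hras DMSO replicate 2 (0.0782), nor with trend and robust moderation (0.0554). All Hras values of Lef1 lay in the dim range, so its falls may be understated and their difference is uncertain.

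**Figure D2:**
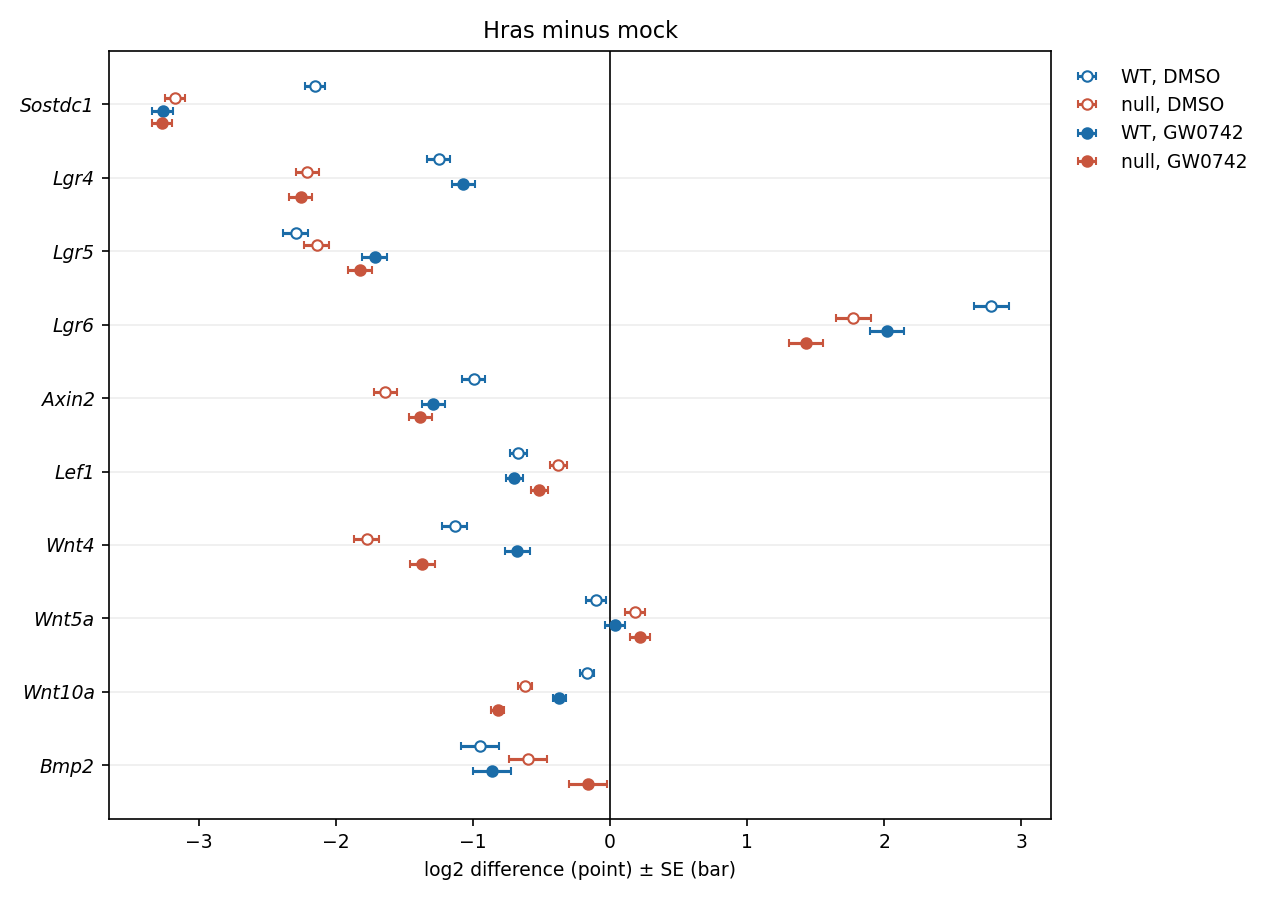
Log2 difference Hras minus mock (horizontal axis; points, with ± SE as bars) for each gene in wild-type (blue) and null (red) cells, with DMSO (open) or GW0742 (filled). Lgr6 lies to the right of 0 in all 4 settings, from 1.43 to 2.78, and Sostdc1 lies farthest to the left except in wild-type DMSO cells, where Lgr5 does.

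Of Wnt4, Wnt5a and Wnt10a, Wnt4 had the largest falls with Hras under DMSO. It measured 10.43, 10.56 and 10.48 in wild-type mock DMSO and 9.29, 9.32 and 9.46 in wild-type Hras DMSO cells (-1.13 ± 0.09, adjusted p = 1.01e-09). In null cells it went from 10.85, 10.98 and 11.04 to 9.11, 9.20 and 9.24 (-1.77 ± 0.09, adjusted p = 6.59e-13), a larger fall (difference -0.64 ± 0.13, adjusted p = 0.00117). The second Wnt4 probe set gave changes of -1.02 ± 0.06 and -1.55 ± 0.06, in the same direction.

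Wnt10a, whose loss in people and mice disturbs teeth, hair and other skin appendages, changed little in wild-type cells, from 11.16, 11.22 and 11.24 to 11.05, 11.08 and 10.99. That fall of -0.17 ± 0.05 (adjusted p = 0.0123) did not pass without wild-type mock DMSO replicate 3 (adjusted p = 0.0540) or wild-type Hras DMSO replicate 3 (0.0634), nor with the arrays centred on their medians (0.0644). In null cells it fell from 11.43, 11.49 and 11.50 to 10.90, 10.88 and 10.79 (-0.62 ± 0.05, adjusted p = 1.37e-09). The falls differed by -0.45 ± 0.07 (adjusted p = 0.000115).

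Wnt5a varied least, with group means between 8.06 and 8.43. Its change with Hras was -0.10 ± 0.07 in wild-type DMSO cells (adjusted p = 0.314). In null DMSO cells it was 0.19 ± 0.07 (adjusted p = 0.0472), which did not pass in 5 of the 6 refits without 1 array. Those were the refits without null mock DMSO replicate 1 (adjusted p = 0.0554), 2 (0.0799) or 3 (0.154) and without null Hras DMSO replicate 2 (0.152) or 3 (0.145). Bmp2 fell in wild-type DMSO cells from 8.0, 8.14 and 8.23 to 7.05, 7.14 and 7.33 (-0.95 ± 0.14, adjusted p = 8.41e-06). In null DMSO cells its fall was -0.60 ± 0.14 (adjusted p = 0.00123), and the null Hras DMSO arrays were spread, at 6.93, 7.50 and 7.53. The difference for Bmp2 (0.35 ± 0.20, adjusted p = 0.277) did not pass with all arrays and passed without null Hras DMSO replicate 1 (0.55, adjusted p = 0.0293).

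Under GW0742 the Hras changes kept their directions for the 9 genes other than Wnt5a, with Bmp2 in null cells not passing (-0.16 ± 0.14, adjusted p = 0.408). Sostdc1 was then 9.61-fold lower with Hras in wild-type (-3.26 ± 0.07) and 9.63-fold lower in null cells (-3.27 ± 0.07); the wild-type value contains the arrays for which it was singled out and carries no test. Lgr4 fell in wild-type (-1.07 ± 0.08, adjusted p = 9.77e-10) and in null cells (-2.26 ± 0.08, adjusted p = 4.87e-15). Wnt5a in null cells measured 0.22 ± 0.07 (adjusted p = 0.0199), which did not pass without null mock GW0742 replicate 3 (0.0826) or null Hras GW0742 replicate 1 (0.103). In wild-type cells under GW0742, 7 of the 8 genes other than Sostdc1 and Lgr6 passed, all lower, against 35.2% of all genes (17.5% lower and 17.7% higher). In null cells under GW0742, 7 of the 10 fell and 2 rose, against 41.8% of all genes (20.7% lower and 21.0% higher).

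The other genes of these pathways, 130 measured of 132 listed, were changed in either direction by Hras. In wild-type DMSO cells 25 rose, 45 fell and 60 did not pass, with a median change of -0.03. That is 53.8% past the threshold, against 37.4% of all genes (19.0% lower and 18.4% higher). In null DMSO cells 15 rose, 54 fell and 61 did not pass (median -0.09). That is 53.1%, against 40.7% of all genes (20.5% lower and 20.2% higher). The fallers included 11 of 22 Wnt receptor and R-spondin axis genes in wild-type and 13 in null cells. Among these, Rnf43, the ligase that removes Frizzled receptors, fell in wild-type (-1.48 ± 0.07) and in null cells (-2.19 ± 0.07). The secreted Wnt inhibitor Wif1 fell in wild-type (-2.08 ± 0.13) and in null cells (-1.16 ± 0.13). The ligand gene Wnt3 fell in wild-type (-1.74 ± 0.09) and in null cells (-2.24 ± 0.09). Wnt7a rose by 2.22 ± 0.07 in wild-type and 1.55 ± 0.07 in null cells. Grem1, a secreted BMP antagonist, rose by 1.94 ± 0.13 in wild-type and 2.37 ± 0.13 in null cells. Ccnd1, which encodes cyclin D1, rose by 1.73 ± 0.08 in wild-type and 2.22 ± 0.08 in null cells. Of 11 SMAD and BMP target genes, 5 fell and 0 rose in wild-type and 7 fell and 0 rose in null cells, Id1 among them (-1.39 ± 0.08 in wild-type cells).

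**Figure D3:**
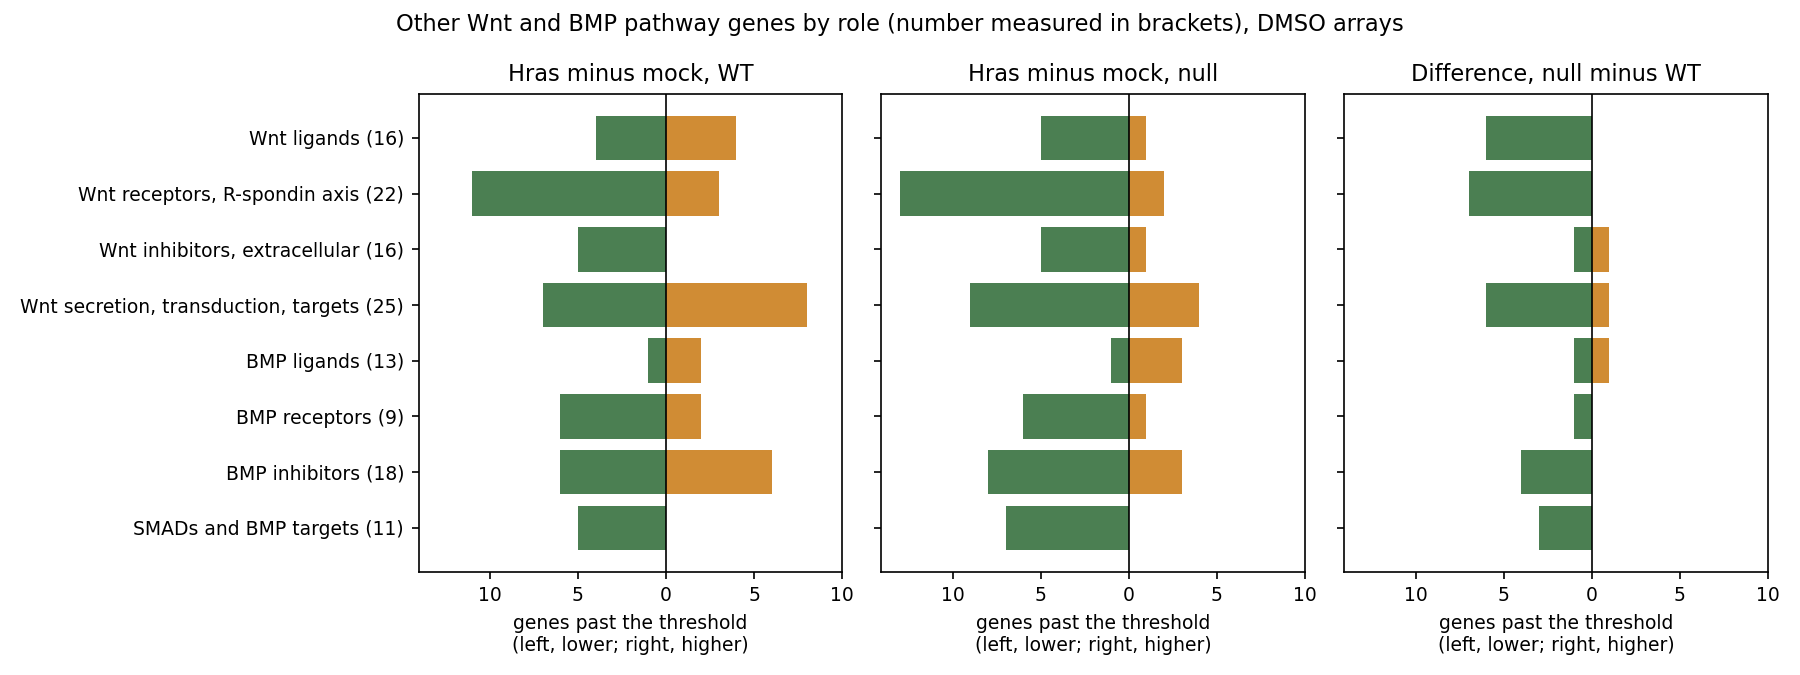
Number of other Wnt and BMP pathway genes past the threshold (horizontal axis; lower to the left, higher to the right) by role, for Hras minus mock in wild-type and null DMSO cells and for the difference of these effects. Wnt receptor and R-spondin axis genes fell in 11 and 13 of 22 cases and BMP receptor genes in 6 of 9 in each genotype, and 7 of the former had a more negative Hras effect in null cells.

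The Hras effect under DMSO differed between genotypes for 5 of the 8 genes other than Sostdc1 and Lgr6, where 16.8% of all genes passed. It was more negative in null cells for 4 of them (Lgr4, Axin2, Wnt4 and Wnt10a, against 8.41% of all genes) and less negative for Lef1, against 8.35% of all genes more positive. Among the other pathway genes 29 had a more negative and 3 a more positive effect in null cells. Wnt7b differed most: it rose with Hras by 1.49 ± 0.09 in wild-type cells, from a mean of 8.87 to 10.36, while the null means were 9.44 and 9.32 (difference -1.61 ± 0.12, adjusted p = 2.22e-08). The Wnt5a receptor gene Ror1 also had a more negative effect (difference -0.82 ± 0.14). Bmp6 had a more positive one (1.17 ± 0.16), as did Wif1 (0.92 ± 0.18).

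Seen within each condition, the genotype difference turned with Hras for several genes. In mock DMSO cells null levels were higher for Lgr4 (0.56 ± 0.08, adjusted p = 0.000102), Wnt4 (0.47 ± 0.09, adjusted p = 0.00136), Axin2 (0.35 ± 0.08, adjusted p = 0.00780) and Wnt10a (0.27 ± 0.05, adjusted p = 0.000968). They were lower for Lgr5 (-0.49 ± 0.09, adjusted p = 0.000720), Wnt5a (-0.30 ± 0.07, adjusted p = 0.00956) and Lef1 (-0.24 ± 0.06, adjusted p = 0.0116). That made 7 of 10 genes, against 10.4% of all genes (4.89% higher and 5.53% lower). The Lef1 call was lost without null mock DMSO replicate 1 (adjusted p = 0.0521), and the Wnt5a call without wild-type mock DMSO replicate 1 (0.0727) or null mock DMSO replicate 3 (0.0527). In Hras DMSO cells 4 of the 8 genes other than Sostdc1 and Lgr6 were lower in null cells and 0 were higher, against 19.4% of all genes (9.32% lower and 10.1% higher). They were Lgr4 (-0.40 ± 0.08, adjusted p = 0.00163), Lgr5 (-0.34 ± 0.09, adjusted p = 0.00940), Axin2 (-0.29 ± 0.08, adjusted p = 0.0150) and Wnt10a (-0.18 ± 0.05, adjusted p = 0.0119). The same difference measured -0.92 ± 0.07 for Sostdc1 and -0.92 ± 0.13 for Lgr6, without a test. Axin2 did not pass without wild-type Hras DMSO replicate 1 (0.0962) or null Hras DMSO replicate 3 (0.116) or with only the arrays compared (0.0699). Wnt10a did not pass without wild-type Hras DMSO replicate 2 (0.0626) or null Hras DMSO replicate 3 (0.0725) or with only the arrays compared (0.0734). These comparisons share arrays with the Hras effects above and are the same data read the other way.

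Other pathway genes split by genotype as well. In mock DMSO cells 17.7% of the 130 passed, against 10.4% of all genes, with 14 higher and 9 lower in null cells. Among the lower ones were Grem1 (-0.70 ± 0.13), Ccnd1 (-0.69 ± 0.08) and the Wnt inhibitor gene Apcdd1 (-0.67 ± 0.08). In Hras DMSO cells 27.7% passed, against 19.4% of all genes, with 6 higher and 30 lower. Of these Bmp6 was higher (1.13 ± 0.11), and Wnt7b (-1.03 ± 0.09), the BMP and activin antagonist gene Fst (-0.87 ± 0.06) and Apcdd1 (-0.87 ± 0.08) were lower in null cells. In mock cells 9 instead of 14 were higher without null replicate 2, and in Hras cells 10 instead of 6 were higher without wild-type replicate 1.

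GW0742 lowered 3 of the 10 genes in wild-type mock cells, against 2.86% of all genes (1.61% lower and 1.25% higher). The genes called over the whole array numbered 570, and 288 to 401 with any 1 of the 6 arrays left out, while the same count of 3 was reached here each time. Lgr5 went from 8.77, 9.0 and 8.61 to 7.92, 8.17 and 8.09, a 1.66-fold fall (-0.73 ± 0.09, adjusted p = 2.08e-05). Lgr4 went from 11.55, 11.51 and 11.47 to 11.04, 11.07 and 11.10 (-0.44 ± 0.08, adjusted p = 0.00388). Wnt10a went from 11.16, 11.22 and 11.24 to 10.84, 11.00 and 10.91 (-0.29 ± 0.05, adjusted p = 0.00149). None of these 3 pairs of groups overlapped. The arrays of Sostdc1 (-0.20 ± 0.07, adjusted p = 0.206), Bmp2 (-0.29 ± 0.14, adjusted p = 0.386) and Wnt4 (-0.15 ± 0.09, adjusted p = 0.542) did not overlap either, but these changes did not pass. The share of all genes without overlap is not given, so the lack of overlap is a description and adds no support. For comparison, the PPAR target genes Pdk4 and Angptl4 changed by 4.14 ± 0.08 and 4.17 ± 0.11 on the same arrays.

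In null mock cells GW0742 changed 0 of the 10 genes by the limma test, and 0 of all genes (0%), with 1097 genes at an unadjusted p under 0.05. Lgr5 measured 8.17, 8.44 and 8.29 with DMSO and 8.08, 8.26 and 8.21 with GW0742 (-0.12 ± 0.09, 95% interval -0.30 to 0.07). Lgr4 changed by -0.06 ± 0.08 (interval -0.23 to 0.12) and Wnt10a by 0.11 ± 0.05 (interval 0.00 to 0.21). Unlike in wild-type cells, the 3 Wnt10a values with ligand (11.58, 11.55 and 11.63) were all above those without. The ligand effect differed between genotypes for Wnt10a (null minus wild-type 0.40 ± 0.07, adjusted p = 0.00423) and Lgr5 (0.61 ± 0.13, adjusted p = 0.0161), against 0.848% of all genes (0.286% higher and 0.562% lower). For Lgr4 the difference did not pass (0.38 ± 0.12, adjusted p = 0.204), and with the null Hras GW0742 group left out of the model it did (adjusted p = 0.0430). The Lgr5 difference was lost without wild-type mock DMSO replicate 2 (adjusted p = 0.0586), wild-type mock GW0742 replicate 1 (0.0664), null mock DMSO replicate 1 (0.0632) or null mock GW0742 replicate 2 (0.0599), and with only the arrays compared (0.0590).

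In wild-type Hras cells the lower values for which Sostdc1 and Lgr6 were singled out were these. Sostdc1 measured 11.25, 11.44 and 11.37 with DMSO and 9.88, 10.10 and 10.16 with GW0742, a change of -1.31 ± 0.07, or 2.48-fold. Lgr6 measured 10.10, 10.14 and 10.11 with DMSO and 9.39, 9.17 and 9.30 with GW0742, a change of -0.83 ± 0.13, or 1.78-fold. The groups did not overlap for either gene, which adds no support, because both were singled out for these values. The level of Lgr6 with ligand stayed above every mock array. Of the other 8 genes 2 passed, Wnt10a lower and Wnt4 higher, where 6.11% of all genes passed, 1.65% as lower and 4.46% as higher.

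Wnt10a went from 11.05, 11.08 and 10.99 to 10.62, 10.48 and 10.54 in those cells (-0.49 ± 0.05, adjusted p = 7.90e-07). Wnt4 went from 9.29, 9.32 and 9.46 to 9.83, 9.51 and 9.65 (0.31 ± 0.09, adjusted p = 0.0477). The Wnt4 call was at the threshold: it was lost without wild-type Hras DMSO replicate 1 (adjusted p = 0.189) or 2 (0.151) or wild-type Hras GW0742 replicate 1 (0.239) or 3 (0.116), and with the arrays centred (0.0566), every probe set kept (0.0508), only the arrays compared (0.122) or the replicate block (0.0510). The second Wnt4 probe set measured 0.38 ± 0.06. Lgr4 (-0.26 ± 0.08, adjusted p = 0.0762) missed the threshold here and passed with the dimmest genes left out (0.0391), with trend and robust moderation (0.0341) and without the null Hras GW0742 group in the model (0.0130). Lgr5, already low with Hras, measured -0.15 ± 0.09 (adjusted p = 0.430).

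**Figure D4:**
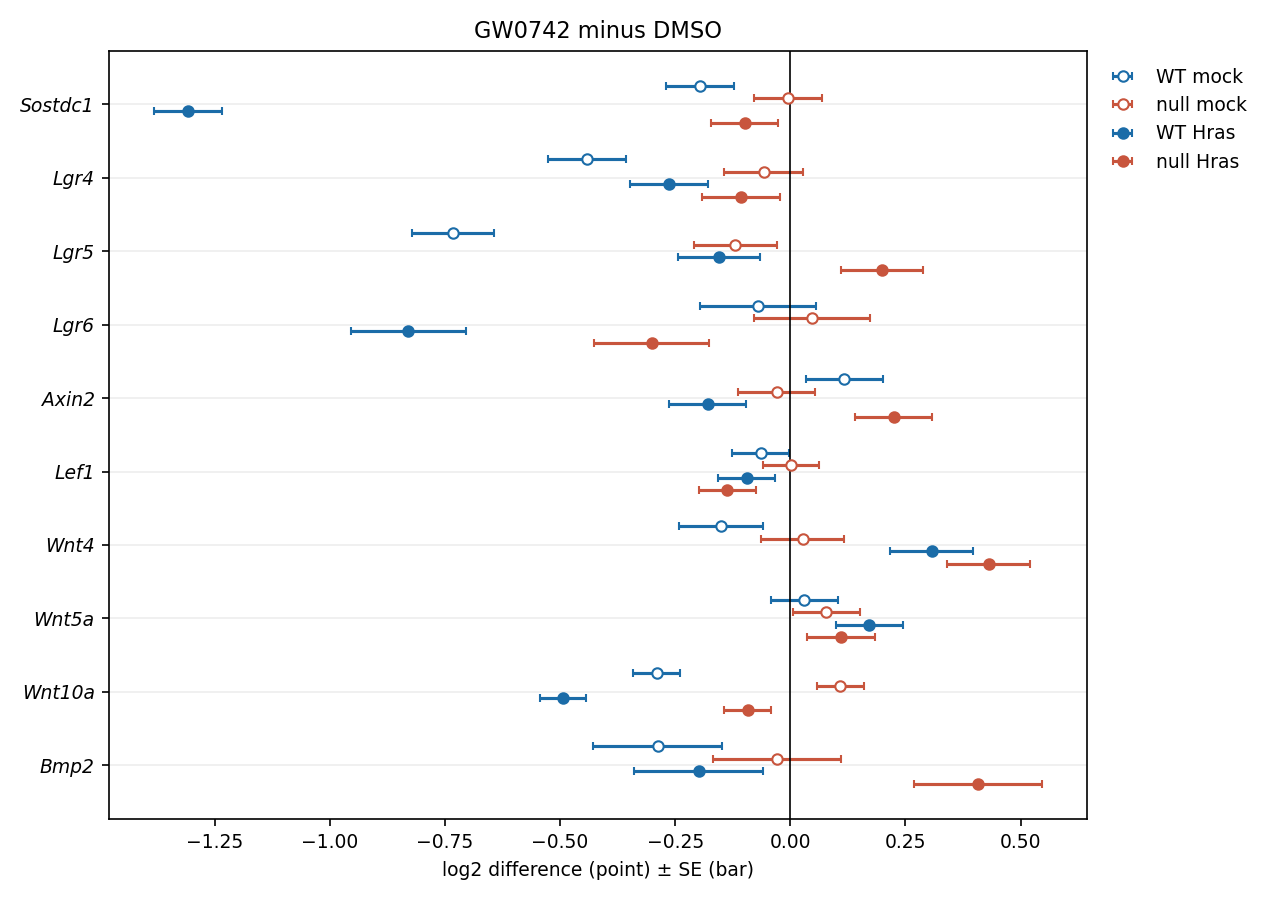
Log2 difference GW0742 minus DMSO (horizontal axis; points, with ± SE as bars) for each gene in mock (open) and Hras (filled) cells, wild-type in blue and null in red. The wild-type Hras points of Sostdc1 (-1.31) and Lgr6 (-0.83), for which these genes were singled out, lie farthest from 0. Wnt10a lies left of 0 in both wild-type settings.

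In null Hras cells 1 of the 10 genes passed with GW0742, Wnt4, against 5.02% of all genes (3.51% higher and 1.51% lower). Wnt4 went from 9.11, 9.20 and 9.24 to 9.37, 9.82 and 9.65 (0.43 ± 0.09, adjusted p = 0.00601). It did not pass without null Hras GW0742 replicate 2 (adjusted p = 0.0668) or with only the 6 arrays compared (0.239). Sostdc1 measured 10.63, 10.33 and 10.36 with DMSO and 10.41, 10.28 and 10.34 with ligand, which overlapped (-0.10 ± 0.07, 95% interval -0.25 to 0.05, adjusted p = 0.568). Lgr6 measured 9.34, 9.13 and 9.12 with DMSO and 9.33, 8.65 and 8.71 with ligand, where replicate 1 stood apart (-0.30 ± 0.13, adjusted p = 0.204). Without that array Lgr6 changed by -0.52 (adjusted p = 0.000921), and Axin2 (0.28, adjusted p = 0.0427) and Bmp2 (0.49, adjusted p = 0.0412) passed as higher. The count of all genes called moved from 1001 to 2539 without this array and to 393 without replicate 2. It was 0 with only the 6 arrays compared, so the calls here depend on the spread shared with the other groups.

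The ligand effect in Hras cells differed between genotypes for Wnt10a (null minus wild-type 0.40 ± 0.07, adjusted p = 0.00324), as in mock cells, although not with only the arrays compared (adjusted p = 0.0634). It was 1 of the 8 genes other than Sostdc1 and Lgr6, against 1.73% of all genes (0.517% higher and 1.21% lower). For Sostdc1 the difference was 1.21 ± 0.10 and for Lgr6 0.53 ± 0.18, given without a test. Axin2 (0.40 ± 0.12, adjusted p = 0.109) did not pass with all arrays and passed without null Hras GW0742 replicate 1 (0.46, adjusted p = 0.0379).

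Between mock and Hras wild-type cells the ligand effect of Lgr5 differed, being less negative with Hras (0.58 ± 0.13, adjusted p = 0.0137), against 2.47% of all genes (2.05% higher and 0.421% lower). It did not pass without wild-type mock GW0742 replicate 1 (adjusted p = 0.0521). All Hras values of Lgr5 lay in the dim range, so a fall with ligand there may be understated. Wnt4 (0.46 ± 0.13, adjusted p = 0.0649) missed the threshold and passed under 5 of the refits, and its second probe set measured 0.56 ± 0.08. For Sostdc1 the difference was -1.11 ± 0.10 and for Lgr6 -0.76 ± 0.18, again without a test.

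Some of the other pathway genes changed with the ligand. In wild-type mock cells 1 rose and 10 fell of 130, which is 8.46% against 2.86% of all genes, and 4 to 6 fell when any 1 array but GW0742 replicate 2 was left out. Fst rose by 0.60 ± 0.06. Porcn, the acyltransferase that Wnt proteins need for secretion, fell by 0.50 ± 0.05, and the BMP target gene Id2 fell by 0.37 ± 0.05. In wild-type Hras cells 8 rose and 11 fell, which is 14.6% against 6.11% of all genes, and with any 1 of the 6 arrays left out 2 to 6 rose and 4 to 7 fell. Fst rose by 0.36 ± 0.06 and Porcn fell by 0.31 ± 0.05 there. In null mock cells 0 passed. In null Hras cells 5 rose and 1 fell (4.62% against 5.02% of all genes), between 3 and 13 and between 0 and 5 with 1 array left out, with 13 and 5 without GW0742 replicate 1 and 3 and 0 without replicate 2. Id2 (0.58 ± 0.05), Id1 (0.49 ± 0.08) and Fst (0.40 ± 0.06) rose there. With only those 6 arrays in the model 0 of all genes passed, so none of these rises did.

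Across the 8 groups each gene had its own order of levels. For Sostdc1 and Lgr6, singled out on wild-type Hras arrays, the places of those groups are descriptions only. Sostdc1 was lowest in wild-type Hras GW0742 cells (mean 10.05 ± 0.15, SD, n = 3), next to null Hras GW0742 (10.34 ± 0.07) and null Hras DMSO (10.44 ± 0.16), whose arrays overlapped. Wild-type Hras DMSO (11.36 ± 0.10) stood apart from these and from all mock groups. Wnt10a was also lowest in wild-type Hras GW0742 cells (10.55 ± 0.07), followed by null Hras GW0742 (10.76 ± 0.02) and null Hras DMSO (10.86 ± 0.06), and was highest in null mock GW0742 cells (11.58 ± 0.04). Lgr6 was highest in wild-type Hras DMSO cells (10.12 ± 0.02), apart from all others. Below it wild-type Hras GW0742 (9.29 ± 0.11), null Hras DMSO (9.20 ± 0.13) and null Hras GW0742 (8.89 ± 0.38) overlapped in that order, and all 4 mock groups overlapped with their neighbours, at means of 7.26 to 7.47.

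Lgr4 and Wnt4 were highest in null mock cells, with or without ligand. Lgr4 had means of 12.07 and 12.01 there, above wild-type mock DMSO (11.51) and wild-type mock GW0742 (11.07), and these last 2 did not overlap each other or the null arrays. Axin2 had overlapping arrays in each neighbouring pair of Hras groups, from 8.35 to 8.65. Lgr5 was highest in wild-type mock DMSO cells (8.79 ± 0.19), and the other 3 mock groups overlapped in order, from 8.06 to 8.30. For Wnt5a each neighbouring pair of groups overlapped along the whole order.

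Over the 24 arrays Sostdc1 correlated with Axin2 (Pearson r = 0.97), Lgr5 (0.96) and Lgr4 (0.95), and with Lgr6 in the negative direction (-0.85). The correlations of Wnt5a ran from -0.70 with Wnt10a to 0.21 with Lgr6. These correlations are descriptions: the 24 arrays share 8 conditions, and the split between mock and Hras cells dominates them. The genes most like Sostdc1 over the 24 arrays were Mylip (r = 0.99), Itgb8 (0.99) and Ephb6 (0.98). For Lgr6 they were Plekhb1 (0.99), Entpd3 (0.98) and Zfp608 (0.98), for Lgr4 Sema3d, Gulp1 and Clca3a1 (0.99 each), and for Lgr5 Pdzd2 (0.99), Slc16a7 (0.99) and Irx4 (0.98). For Axin2 they were Penk (0.99), Plxna2 (0.98) and Myh14 (0.98), and for Wnt4 Gdpd2 (0.99), Camk1d (0.98) and Limch1 (0.98). Lef1 was most like Rgma, Ddr2 and Col5a2 (0.97 each), Wnt10a most like Bcas3 (0.97), Samd5 (0.95) and Ttyh2 (0.95), and Bmp2 most like Tmem45a (0.95), Fam83c (0.94) and Calm4 (0.93). Wnt5a had the weakest nearest neighbours, Riox2 (0.85), Plk2 (0.84) and Klk7 (0.83).

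Markers of other cell types moved with the same conditions. Of 12 fibroblast markers, Col1a1 and Pdgfrb among them, 11 fell with Hras in wild-type DMSO cells, and 11 were lower in null than in wild-type mock DMSO cells. With Hras in null DMSO cells 3 rose and 7 fell, in Hras DMSO cells 6 were higher and 1 lower in null cells, and 10 had a more positive Hras effect in null cells. For all genes the shares between genotypes were 5.53% lower in null mock DMSO cells, and 10.1% higher and 9.32% lower in null Hras DMSO cells. A more positive Hras effect in null cells was seen for 8.35% of all genes. The summed signal of the fibroblast markers was 9715 to 10196 in wild-type mock DMSO, 5653 to 5812 in null mock DMSO, 3358 to 3609 in wild-type Hras DMSO and 3714 to 4547 in null Hras DMSO cells. All 12 melanocyte markers fell with Hras in both genotypes under DMSO, with sums of 24405 to 25219 and 12454 to 13530 in wild-type mock and Hras cells and of 21426 to 21957 and 13083 to 14920 in null cells. In null mock DMSO cells 11 of 12 fibroblast and 6 of 12 melanocyte markers were lower, as were Lgr5, Wnt5a and Lef1. Lgr4, Wnt4, Axin2 and Wnt10a were higher there. Unlike most fibroblast markers, Wnt5a did not pass with Hras in wild-type DMSO cells (-0.10 ± 0.07, adjusted p = 0.314). Col5a2, one of the genes most like Lef1, is on the fibroblast list. Keratinocyte markers themselves fell in 10 of 12 cases with Hras in wild-type DMSO cells. Among 12 hair follicle genes 6 fell and 2 rose with Hras in wild-type DMSO cells and 7 fell and 2 rose in null cells. Of all genes 37.4% and 40.7% passed in these comparisons. With GW0742 in wild-type mock cells 0 of 12 fibroblast and 0 of 12 melanocyte markers passed, with median changes of -0.13 and -0.15. The 2 sums there, 8639 to 9540 and 21926 to 22452, lay below those of all wild-type mock DMSO arrays. In null Hras cells 8 of 12 melanocyte markers rose with GW0742, where 3.51% of all genes passed as higher. With only the 6 arrays compared, 0 of all genes passed there. Leukocyte and Langerhans cell markers were dim, with the mean of 1 of 12 above the dim limit. On single arrays Lyz2 reached 9.08 and Fcer1g 7.90, while Ptprc was at most at 6.23. Of 8 endothelial markers, 2 had means above it. Their part in the results was not tested, and fewer cells of a type and less RNA per cell cannot be told apart in these whole-culture samples.

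**Figure D5:**
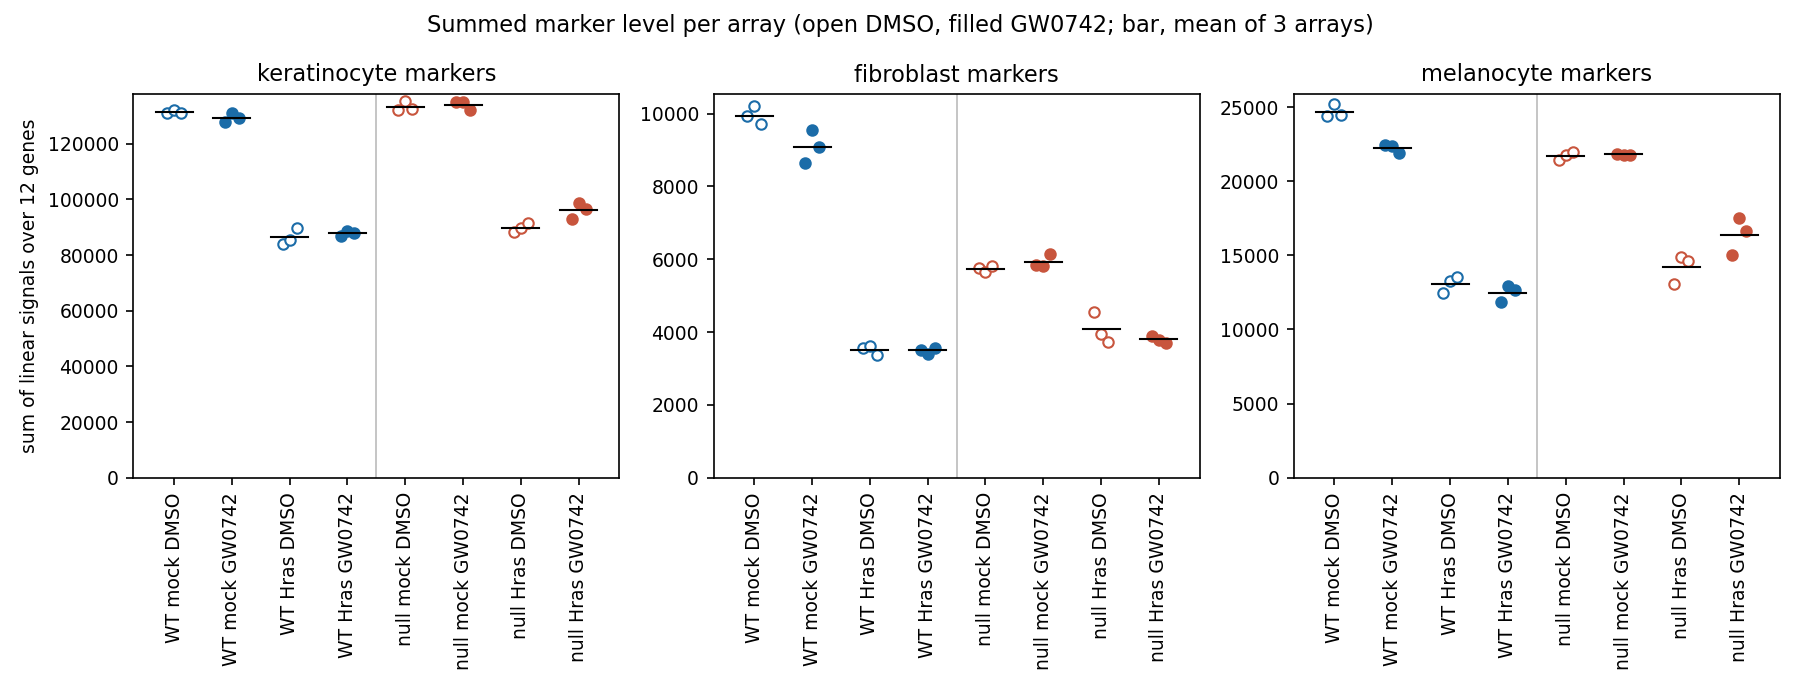
Sum of linear signals over each list of 12 marker genes (vertical axis, from 0) on every array by group (horizontal axis); blue is wild-type, red is null, open circles are DMSO, filled circles are GW0742 and bars are means of 3 arrays. Fibroblast sums in mock DMSO cells lie at 9715 to 10196 in wild-type and 5653 to 5812 in null cells, and all 3 lists are lower on Hras arrays.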

How the data were processed

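Each of the 24 samples was hybridised to 1 Affymetrix Mouse Gene 1.0 ST array. Per the submitters' processing notes, the authors used RMA, and they deposited log2 values; the sources used here name no software version or build. RMA's quantile step hides a change shared by most genes. Of 34760 probe sets, 21640 had 1 gene symbol, 1321 several and 11799 none listed, and each gene was read from its probe set with the highest mean, giving 19937 genes tested with no filter.

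With limma 3.58.1 (R 4.3.3), 1 mean per group was fitted and moderated over all genes (16 residual degrees of freedom, 4.43 from the prior), without a replicate block. The 14 comparisons are contrasts of these means, tested on both sides at a Benjamini-Hochberg adjusted p of 0.05 over all genes. Sostdc1 and Lgr6 were not tested or counted where wild-type Hras arrays enter. Same-numbered residuals correlated between -0.13 and 0.24, over 0.1 in 7 of 30 pairs. All 3 pairs were over 0.1 (0.14, 0.12 and 0.13) only between null and wild-type mock DMSO arrays, where the numbers may pair the samples; the block left the 7 calls of that comparison past the threshold. Other pathway genes were named as the up to 4 passing genes with the largest change per comparison, not all of which are described. Rnf43, Id1 and Ccnd1 with Hras in wild-type cells were added after their values were seen, as were Wif1 and Wnt7a in null cells. Likeness is Pearson's r, 3 genes per member. Members and lists were chosen with earlier results of these data known. On simulated data for GW0742 in wild-type mock cells over 19937 genes, 91% of 100 genes changed 1.5-fold and 99% of 100 changed 2-fold were recovered, with 5 false among 195 calls. The alternatives were median centring, leaving out the dimmest 40% of genes, trend and robust moderation, every probe set, only the arrays compared, a replicate block, a minimum fold of 1.5 and leaving out each array; the model without null Hras GW0742 was added after the data were seen. Promoter windows are RefSeq's (GRCm38.p6). Figures used matplotlib 3.10.9.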

Additional observations from a re-analysis of the deposited data

Results flagged for a closer look

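The Hras effect under DMSO differed between genotypes by the limma test of the difference (null minus wild-type). It was -0.96 for Lgr4 (adjusted p = 9.16e-06), -0.65 for Axin2 (adjusted p = 0.000534), -0.64 for Wnt4 (adjusted p = 0.00117) and -0.45 for Wnt10a (adjusted p = 0.000115). For Lef1 it was 0.29 (adjusted p = 0.0250). The Hras values of Lef1 were dim, so its falls may be understated.

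The GW0742 effect differed between genotypes for Wnt10a, by 0.40 in mock cells (adjusted p = 0.00423) and by 0.40 in Hras cells (adjusted p = 0.00324), and for Lgr5 by 0.61 in mock cells (adjusted p = 0.0161). In wild-type cells it differed for Lgr5 with Hras status, by 0.58 (adjusted p = 0.0137). The Hras values of Lgr5 were dim, so a fall with ligand there may be understated. Groups of 3 arrays are too small for a test of single outlying arrays.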

How the results depend on the processing

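Of the 59 tested effects of single genes past the threshold, 31 kept it and their direction under every alternative run. All 59 effects together had 869 refits. The threshold was lost in 72 of these, all for the other effects, and 0 refits changed a direction. A minimum fold of 1.5 accounted for 27 of these losses and leaving out 1 array for 30. With that minimum, the genes called numbered 1 instead of 3 for GW0742 in wild-type mock cells, 0 instead of 2 in wild-type Hras cells and 0 instead of 1 in null Hras cells. Between genotypes they were 0 instead of 7 in mock DMSO and 0 instead of 4 in Hras DMSO cells. For the GW0742 difference between genotypes they were 1 instead of 2 in mock and 0 instead of 1 in Hras cells, for the Hras difference between genotypes 3 instead of 5, and for the GW0742 difference between Hras and mock in wild-type cells 0 instead of 1. With only the arrays compared, they were 1 for GW0742 in wild-type Hras cells, 0 in null Hras cells, 2 between genotypes in Hras DMSO cells, and 1 in mock and 0 in Hras cells for the GW0742 difference between genotypes. The GW0742 count in wild-type Hras cells was also 1 with centred arrays and with every probe set kept. The GW0742 difference between Hras and mock in wild-type cells had 2 genes with only the arrays compared, with the dimmest genes left out, with trend and robust moderation and without null Hras GW0742 in the model. Leaving out 1 array gave 1 to 2 genes for GW0742 in wild-type Hras cells, 0 to 4 in null Hras cells, 2 to 4 between genotypes in Hras DMSO cells, 1 to 2 for the GW0742 difference between genotypes in mock and in Hras cells, and 0 to 2 for that between Hras and mock in wild-type cells. The cause of these changes was not tested.

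With the replicate block 57 of the 59 effects stayed past the threshold. Wnt4 with GW0742 in wild-type Hras cells (adjusted p = 0.0510), which leaves 1 gene called there, and Wnt5a with Hras in null DMSO cells (adjusted p = 0.0585) did not, and the block changed no other call among these effects. Wnt5a also missed it there with trend and robust moderation (0.0534) and with only the arrays compared (0.0552), and with only the arrays compared under GW0742 (0.0772). Centring the arrays moved the median over all genes by at most 0.06 in a comparison. The number of arrays, 3 per group, limits the precision, and Lgr5 and Lef1 were dim in Hras cells.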
